A study of Mus musculus with 12 samples.

Results

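The genes described here are those of oxidative phosphorylation, the 5 protein complexes of the inner mitochondrial membrane, in 2 classes set by where the gene lies. The mitochondrial class is the 13 protein-coding genes of the mouse mitochondrial chromosome. The nuclear class is the 94 nuclear protein-coding genes whose symbol starts with Ndufa, Ndufb, Ndufc, Ndufs, Ndufv, Uqcr, Cox4 to Cox8 or Atp5, or is Sdha, Sdhb, Sdhc or Sdhd. Together they are 107 of the 55573 genes in the count table. The nuclear class holds 38 genes under complex I, 4 under complex II, 8 under complex III, 18 under complex IV and 18 under complex V. Complexes were assigned by symbol prefix, which puts Ndufa4 and Ndufa4l2 under complex I. The prefix Ndufa also takes in 8 Ndufaf genes, whose products assemble complex I without staying in it. Symbols were unique but for Atp5o, which has 2 identifiers, so that the 94 nuclear genes have 93 symbols.

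Complex I passes electrons from NADH, and complex II from succinate, to coenzyme Q. Complex III hands them on to cytochrome c, complex IV to oxygen, and complex V makes ATP from the proton gradient that complexes I, III and IV build. Complex II is the one complex with no mitochondrially encoded subunit, while the other 4 need mRNA from both genomes. The mitochondrial mRNAs are cut from long transcripts that start at a few promoters on a chromosome present in many copies per cell, and nuclear subunits are transcribed gene by gene. Astrocytes, the glia that supply neurons with metabolites and store the brain's glycogen, run strong glycolysis beside a working respiratory chain.

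Poly(A) RNA was sequenced from cultures enriched for astrocytes, grown from the forebrain of newborn C57BL6/J pups and replated once at confluence after other glia were shaken off. Cultures carried 1 of 2 lentiviruses for 5 days. The control virus was pCIG3, an empty vector with a CMV promoter and GFP. The other, pCIG3-ACREB, encodes ACREB, a dominant-negative protein that keeps the transcription factor CREB from its DNA sites. Each was followed by PBS or by 0.5 µM vasoactive intestinal peptide (VIP), a neuropeptide whose receptors raise cAMP, in the bath for 30 min with 90 min of recovery. These are the 4 groups named control PBS, control VIP, ACREB PBS and ACREB VIP, with 3 libraries each, 12 in all, and every culture carried a lentivirus. The design asks how much of the VIP response goes through CREB. No source ties a library to 1 culture or animal, so p-values measure the spread between libraries, which may be technical.

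Total counts ran from 16571398 to 20529238 per library. Summed astrocyte markers lay between 6574 and 7676 CPM (counts scaled to a common library size, with TMM factors), with 10 of 10 markers tested. Markers of microglia summed to 724 to 1883 CPM, of fibroblasts and mural cells to 1868 to 3006, of the oligodendrocyte lineage to 935 to 1601, of ependyma to 323 to 493, of neurons to 71.2 to 174 and of endothelium to 14.1 to 44.0, with 1 of 5 endothelial markers at 0 in all libraries. Markers of other cell types were thus present, and their part in the values below was not tested, and in bulk RNA fewer cells of a type cannot be told apart from less RNA per cell. Control PBS library 2 stood apart from the rest: a smooth on exon GC content and length took up 49.9% of how its genes varied about their means, with a slope of 0.47 log2 units per 10 points of GC content. ACREB PBS library 2 came next at 27.9%, with 26.7% as the top of the remaining 10.

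The first thing the counts showed was that 6 of the 13 mitochondrial mRNAs were hardly counted. These were mt-Co2 and mt-Co3, 2 of the 3 mitochondrial subunits of complex IV, mt-Atp6 and mt-Atp8, the mitochondrial subunits of complex V, and mt-Nd3 and mt-Nd4l of complex I. They held 1924 counts over the 12 libraries, 0.0477% of all counts of the mitochondrial class, against 4033245 for the other 7. The 6 lie side by side between positions 6381 and 11042 of the mitochondrial chromosome (GRCm38), 4662 bases. The GENCODE annotation has a run of 7 pseudogenes on chromosome 1, between 24611535 and 24616197 on the minus strand, whose sequences match this stretch in the same order. Gm28661 was identical to mt-Co2 over 681 bases, Gm10925 to mt-Atp6 over 678, Gm28437 to mt-Co3 over 783, Gm10222 to mt-Nd4l over 294, and Gm28439 to the first 876 bases of mt-Nd4. Gm28438 matched mt-Nd3 at 344 of 345 bases, and Gm29216 matched the last 492 bases of mt-Co1 at 486. The letters below show 60 bases of 3 such pairs, 5′ to 3′ in the direction of the mitochondrial gene, with the differing bases in capitals, because they show how little sets the nuclear copy apart from the gene.
mt-Co3: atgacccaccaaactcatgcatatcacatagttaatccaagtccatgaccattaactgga
Gm28437: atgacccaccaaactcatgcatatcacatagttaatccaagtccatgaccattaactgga
mt-Nd3: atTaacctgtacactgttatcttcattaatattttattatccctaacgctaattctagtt
Gm28438: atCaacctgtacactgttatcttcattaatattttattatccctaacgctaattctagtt
mt-Co1: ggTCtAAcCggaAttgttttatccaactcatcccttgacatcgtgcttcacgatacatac
Gm29216: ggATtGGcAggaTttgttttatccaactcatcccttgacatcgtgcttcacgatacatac
The mitochondrial stretches are chrM:8607-8666, chrM:9459-9518 and chrM:6381-6440 on the plus strand, and the copies are chr1:24613912-24613971, chr1:24613060-24613119 and chr1:24616138-24616197 on the minus strand. Counting from 1 along the mitochondrial chromosome, the one difference in mt-Nd3 was T9461C, and the 6 in mt-Co1 were T6383A, C6384T, A6386G, A6387G, C6389A and A6393T, all within the first bases of the copy.

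Apart from mt-Atp8, the genes with few counts were those nearly all of whose sequence recurs in a copy. Of all 100-base words in the transcript, another gene held 99.9% for mt-Co3, 99.5% for mt-Co2 and for mt-Atp6, 98.5% for mt-Nd4l and 97.6% for mt-Nd3. It held 60.8% for mt-Nd4, 30.8% for mt-Co1, 3.19% for mt-Nd2 and 0% for mt-Nd1, mt-Nd5, mt-Nd6 and mt-Cytb. For mt-Atp8 it was 0%. Most of mt-Atp8 falls in the gap between Gm28661 and Gm10925, which measures 233 bases on both chromosomes, and the sequence of the gap on chromosome 1 was not compared. The copies took few counts themselves, 92 for Gm10222 to 870 for Gm10925 over the 12 libraries. Whether reads that match both places were dropped in counting was not tested. The values of the 6 genes, and the levels of mt-Nd4 and mt-Co1, which lie partly in the stretch, are therefore uncertain.

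**Figure D1:**
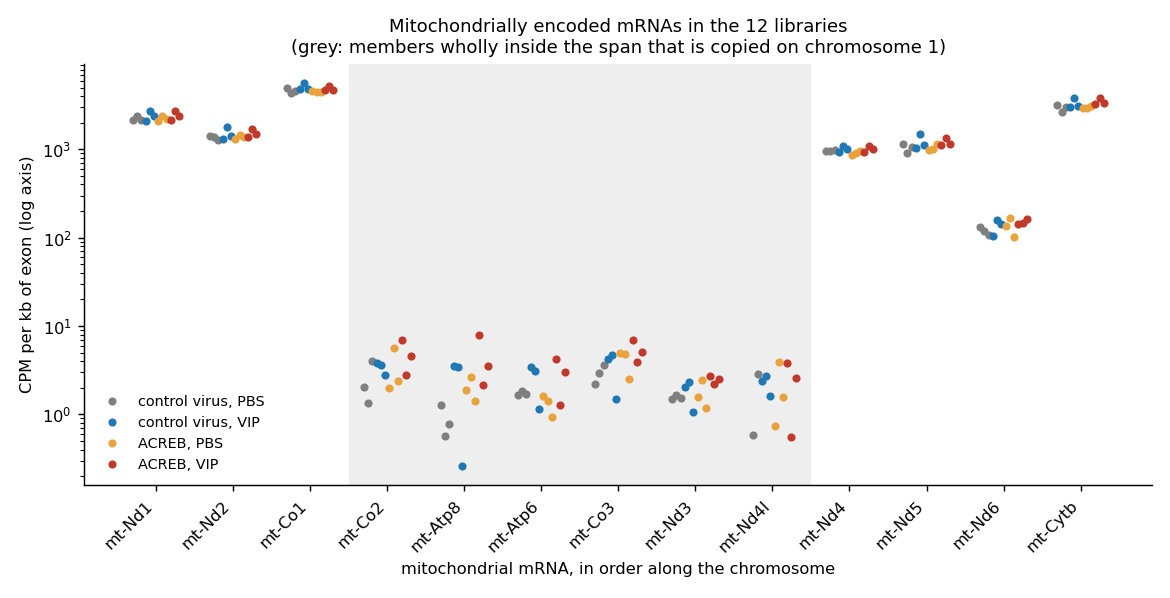
CPM per kb of exon on a log axis for the 13 mitochondrial mRNAs in order along the chromosome, 1 point per library, coloured by group. The 6 genes inside the copied stretch (grey) lie below 10 CPM per kb in every library and the other 7 above 100. The count of 0 for mt-Nd4l in control PBS library 1 is not drawn.

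Among the 7 mitochondrial mRNAs that were counted, mt-Co1, the catalytic subunit of complex IV, had the highest level per length, 4762 CPM per kb as a mean over 12 libraries. Cytochrome b (mt-Cytb), the mitochondrial subunit of complex III, followed at 3179, and of the complex I subunits mt-Nd1 had 2314, mt-Nd2 1438, mt-Nd5 1127 and mt-Nd4 977. Per kb of sequence outside the copied stretch, mt-Co1 came to 6987 and mt-Nd4 to 2681. Counted so, mt-Nd4 stood above mt-Nd1, where per whole length it stood below mt-Nd5. The lowest was mt-Nd6, the single mRNA encoded on the other strand of the chromosome, at 136 CPM per kb. The 3′ end of mt-Nd6 overlaps that of mt-Nd5 on the opposite strand, and the strand setting of the counting is not given in the sources used here.

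In each library, mt-Co1 measured 7652, 6649 and 7129 CPM in the control PBS libraries 1 to 3, 7403, 8721 and 7403 with control VIP, 7023, 6859.7 and 6909.7 with ACREB PBS and 7266, 8093 and 7179 with ACREB VIP. The highest value, in control VIP library 2, and the next, in ACREB VIP library 2, share the replicate number, and the VIP and PBS libraries overlapped with control virus. With ACREB all 3 VIP libraries, at 7179 CPM or more, lay above all 3 PBS libraries, at 7023 or less. For mt-Cytb the values were 3619.9, 3058 and 3419.6 CPM in the control PBS libraries 1 to 3, 3473, 4403 and 3571 with control VIP, 3326, 3393 and 3559 with ACREB PBS and 3703, 4333 and 3782 with ACREB VIP. The same 2 libraries were highest, the other 4 VIP libraries lay at 3473 to 3782 CPM, and control PBS library 1 lay among them, while with ACREB the 3 VIP libraries again lay above the 3 PBS libraries. For mt-Nd1 the values were 2046, 2256 and 2077 CPM in the control PBS libraries 1 to 3, 2027, 2625 and 2267 with control VIP, 1982, 2308 and 2088 with ACREB PBS and 2077, 2566 and 2256 with ACREB VIP. For mt-Nd5 they were 2102, 1651 and 1951 CPM in the control PBS libraries 1 to 3, 1891, 2728 and 2053 with control VIP, 1771, 1851 and 2087 with ACREB PBS and 2059.8, 2431 and 2085 with ACREB VIP. In both, and in mt-Nd2 and mt-Nd4, the VIP and PBS libraries overlapped under either virus. Between libraries of the same replicate number, VIP was above PBS with ACREB in 3 of 3 pairs for mt-Co1, mt-Cytb, mt-Nd1, mt-Nd2 and mt-Nd4. For mt-Nd5 and mt-Nd6 it was so in 2 of 3. With control virus it was so in 2 of 3 pairs for each of the 7, and in none of the 7 for the pair numbered 1. How many of all genes tested had such pair counts was not computed. The share whose 3 VIP libraries all lay above the 3 PBS libraries is not given here. Other genes of like GC content also had a raised median with VIP under both viruses, as given below. mt-Nd6 measured 68.5, 62.4 and 54.98 CPM in the control PBS libraries 1 to 3, 54.9, 83.1 and 74.5 with control VIP, 70.7, 86.9 and 53.3 with ACREB PBS and 74.7, 76.4 and 85.2 with ACREB VIP. Its groups overlapped wherever they differed by virus alone or by treatment alone, while the ACREB VIP libraries all lay above the control PBS libraries. Of the genes inside the copied stretch, mt-Co3 measured 1.71, 2.30 and 2.87 CPM in the control PBS libraries 1 to 3, 3.33, 3.70 and 1.16 with control VIP, 3.87, 3.81 and 1.99 with ACREB PBS and 5.503, 3.11 and 3.98 with ACREB VIP, where its neighbour mt-Co1 had 6649 or more.

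Of the 94 nuclear genes, 88 passed the filter on low counts, which with the 13 mitochondrial genes makes 101 members tested. The 6 that did not were Ndufa4l2 with 70 counts over the 12 libraries, Cox6a2 with 31, Cox7b2 with 9, Cox8c with 3, and Cox8b and the second Atp5o identifier with 0. Per length (RPKM, CPM per kb of merged exons), the median tested nuclear member of complex IV had 82.4, of complex III 91.7, of complex II 66.1, of complex V 57.9, of complex I 43.4 and of the Ndufaf assembly factors 7.33. The highest were Cox8a, a small subunit of complex IV, at 333 RPKM, Cox6b1 at 231, Atp5b, the catalytic beta subunit of ATP synthase, at 226, Cox6a1 at 226, Cox4i1 at 205 and Atp5a1, the alpha subunit, at 201. Complex I was led by Ndufa2 at 134 and Ndufc2 at 127, complex III by Uqcr10 at 144 and Uqcr11 at 135, and complex II by Sdha, the flavoprotein, at 89.5 and Sdhd, a membrane anchor, at 82.2. The lowest of each were Ndufb2 at 0.768, Sdhb, the iron-sulfur subunit, at 40.2, Uqcrc1 at 46.7, Cox4i2 at 0.797, Atp5o at 4.82 and Ndufaf6 at 4.92.

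Some of the low values came with overlapping annotation. Exons of another gene on the same strand covered 2.58% of Ndufb2 (Gm42420), 4.26% of Ndufb8 (Gm20538), 19.5% of Ndufb9 (Gm49356) and 4.48% of Atp5g2 (Mir688). They also covered part of both Atp5o identifiers, which overlap each other. Of these, Atp5g2 was not low, with 23639 counts over the 12 libraries against 967 for Ndufb2. Ndufb2, Ndufb9, Ndufb8 and Atp5o were at 0.768, 9.47, 10.3 and 4.82 RPKM, the 3 lowest of complex I and the lowest of complex V. Their levels are uncertain, and the part of the overlap in them was not tested. In all, 29 nuclear genes overlapped an exon on the opposite strand, and 17 shared a 100-base word with another gene, led by Ndufb4, which shared 33.4% of its words with Ndufb4c.

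The paired isoforms of complex IV were used unevenly. Cox4i1 RPKM was 214 ± 43.1 with control PBS, 204 ± 15.6 with control VIP, 200.3 ± 23.2 with ACREB PBS and 202 ± 18.8 with ACREB VIP (mean ± SD, n = 3), and Cox4i2, the form known from lung and from low oxygen, reached at most 1.31 in any library. Cox7a2, the widely expressed form, averaged 92.7 RPKM and Cox7a1, the heart and muscle form, 4.33. Cox6a1 had 226 against 31 counts in all for the muscle form Cox6a2, and Cox8a 333 against 0 counts for Cox8b and 3 for Cox8c. Ndufa4, a complex IV subunit despite its name but grouped under complex I here, had 114 against 70 counts in all for Ndufa4l2. An exception was Cox6b2, a form best known from testis. It reached 30.7 RPKM beside 231 for Cox6b1. In CPM it measured 32.7, 33.4 and 31.9 CPM in the control PBS libraries 1 to 3, 32.6, 26.9 and 30.0 with control VIP, 39.4, 38.0 and 32.96 with ACREB PBS and 37.4, 33.5 and 38.8 with ACREB VIP. The 3 ACREB VIP libraries, at 33.5 to 38.8, lay above the 3 control VIP libraries, at 26.9 to 32.6. With PBS the groups overlapped, but ACREB was above control virus in 3 of 3 pairs with the same replicate number, as it was with VIP. The share of all genes tested that separate in these ways is not given here.

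**Figure D2:**
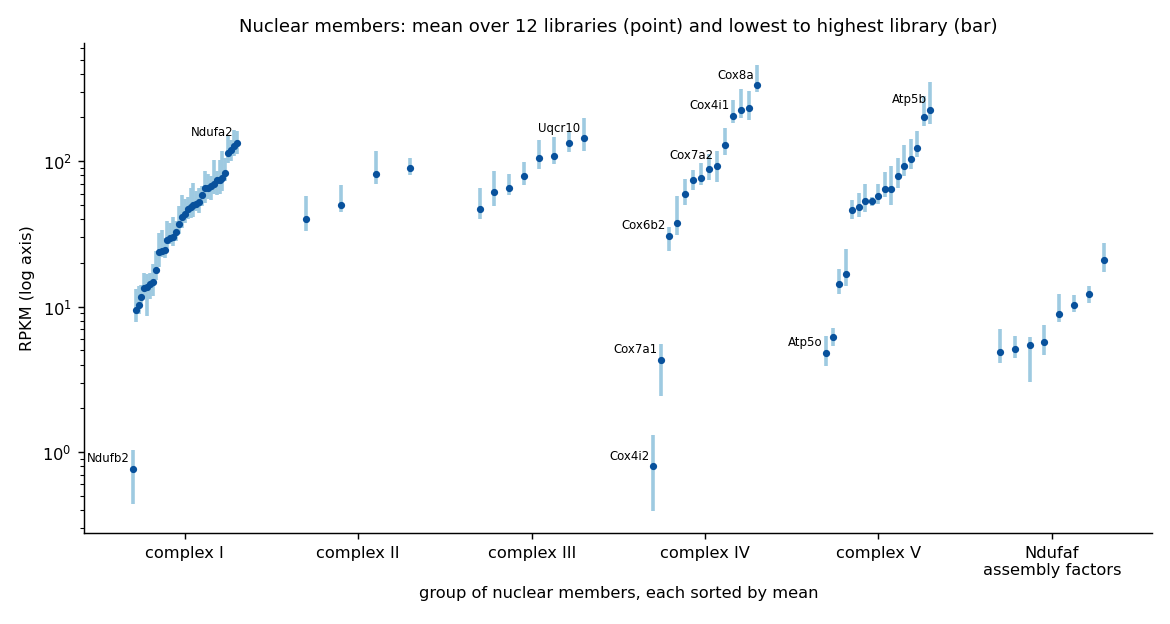
RPKM on a log axis for the 88 tested nuclear members by complex, each sorted by its mean. Points are means over 12 libraries and bars run from the lowest to the highest library. Complex IV spans the widest range, from Cox4i2 at 0.797 to Cox8a at 333.

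The ratio of the 2 classes varied among libraries of 1 group. Counts of the 7 mitochondrial mRNAs divided by counts of the 94 nuclear members came to 2.04, 1.32 and 1.96 in control PBS libraries 1 to 3, 2.01, 2.23 and 1.91 in control VIP, 1.88, 1.61 and 2.10 in ACREB PBS and 2.08, 2.10 and 2.01 in ACREB VIP. Control PBS library 2 and ACREB PBS library 2 were the lowest of the 12, and the other 10 lay between 1.88 and 2.23. The group means were 1.77 ± 0.397, 2.05 ± 0.161, 1.86 ± 0.244 and 2.06 ± 0.0478 (SD, n = 3) in the same order, and the libraries of the groups overlapped. The 7 mRNAs took 1.59% to 2.14% of all counts and the nuclear members 0.857% to 1.21%.

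In both low libraries the nuclear share of counts was above that of the other 10. For each tested gene, log2(CPM + 2) was set against the gene's mean over the 12 libraries, and the median of these departures over the 88 nuclear members was -0.08, 0.36 and -0.09 in control PBS libraries 1 to 3, -0.13, 0.05 and 0.01 in control VIP, -0.07, 0.20 and -0.17 in ACREB PBS and -0.10, 0.08 and -0.03 in ACREB VIP. In control PBS library 2, 83 of 88 nuclear members lay above their own mean, and in ACREB PBS library 2, 84 of 88 did. Of the 88, 64 had their highest value in control PBS library 2 and 16 in ACREB PBS library 2. Library 2 had the highest nuclear median within each of the 4 groups. For the 7 mitochondrial mRNAs the medians were -0.02, -0.14 and -0.08 in control PBS libraries 1 to 3, -0.11, 0.25 and 0.01 in control VIP, -0.14, -0.09 and -0.05 in ACREB PBS and -0.01, 0.22 and 0.04 in ACREB VIP. Here library 2 was the highest in both VIP groups, lay below the others in control PBS and in between in ACREB PBS.

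GC content set the classes apart before any comparison. The exons of the 13 mitochondrial mRNAs held 31.9% to 41.1% G and C with a median of 37.1%, those of the 88 nuclear members 40.3% to 62.8% with a median of 49.98%, and all genes tested a median of 49.2%. Of all genes tested, 9.74% lay at or below the highest mitochondrial value, and 4 of the 88 nuclear members did. The first 60 coding bases of mt-Nd6, the poorest in G and C of the 7 counted mRNAs (chrM:14011-14070, minus strand), and of Cox6a1, the richest nuclear member (chr5:115348891-115348950, minus strand), show this with G and C in capitals.
mt-Nd6: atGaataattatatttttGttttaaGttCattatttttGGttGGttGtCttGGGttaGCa
Cox6a1: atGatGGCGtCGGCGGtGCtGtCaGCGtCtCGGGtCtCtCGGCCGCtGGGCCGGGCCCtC
The mt-Nd6 stretch held 25% G and C and the Cox6a1 stretch 73.3%.

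A smooth of all tested genes on GC content and exon length was therefore removed from each library. The median departure of the 7 mitochondrial mRNAs in control PBS library 2 then turned from -0.14 to 0.39, and that of the nuclear members went from 0.36 to 0.25. After removal the 2 classes were thus both high in that library, as they were in ACREB PBS library 2, at 0.14 and 0.13. The nuclear members were also split by GC content into 3 parts of 29, 30 and 29 genes. Before removal, in control PBS library 2, these parts departed by 0.32, 0.34 and 0.41 from low to high. All genes tested in the same GC ranges departed there by -0.31, 0.11 and 0.26. After removal the 3 nuclear parts departed by 0.51, 0.23 and 0.15 in that library. Across the 88 members the correlation of the departure before removal with GC content in control PBS library 2 was 0.293, a description over genes that share 1 library. The removal rests on few genes at the GC content of mt-Nd6, since 20 of all genes tested lie at or below it. At or below the highest mitochondrial value lie 1632.

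**Figure D3:**
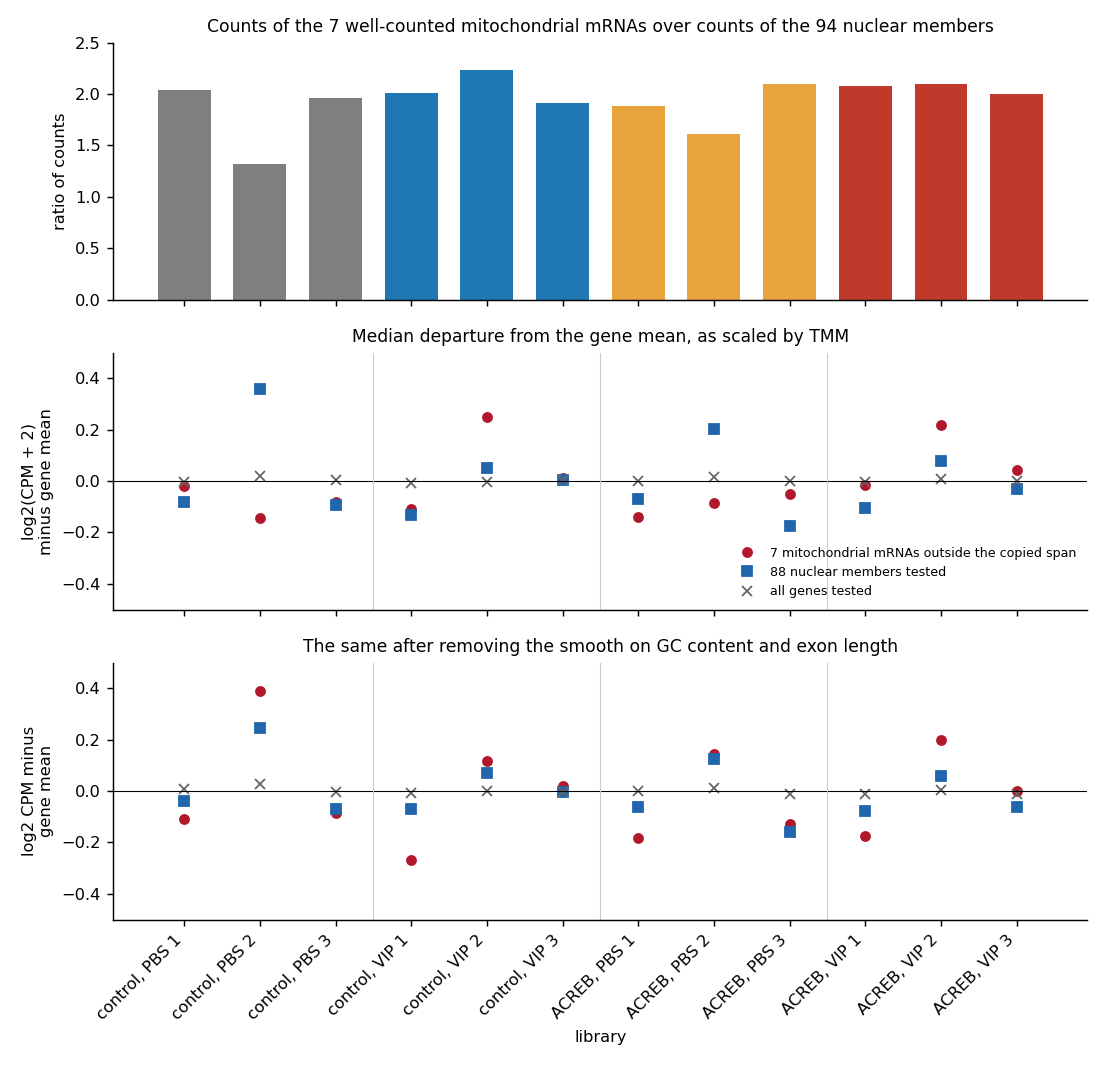
Top, counts of the 7 counted mitochondrial mRNAs over counts of the nuclear members in each library. Middle and bottom, median departure from the gene mean on a log2 scale for the 7 mitochondrial mRNAs, the 88 tested nuclear members and all genes tested, before and after removal of the smooth on GC content and exon length. In control PBS library 2 the mitochondrial point moves from -0.14 to 0.39 and the nuclear point from 0.36 to 0.25.

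No member passed an adjusted p of 0.05 in edgeR (quasi-likelihood F test, Benjamini-Hochberg over the 16761 genes tested). For VIP with control virus, 0 of 13 mitochondrial and 0 of 88 nuclear members passed, where 0.489% of all genes did. For VIP with ACREB it was 0 of 101 where 0.0119% passed, for ACREB against control virus with PBS 0 of 101 where 0.0358% passed, and for the same with VIP 0 of 101 where 0.0537% passed. In the interaction, which is how much the VIP response under ACREB exceeds that under control virus, 0 of 101 and 0% of all genes passed. By unadjusted p under 0.05 there were 0, 1, 0, 1 and 0 members in these 5 comparisons, where 6.42%, 1.92%, 5.3%, 5.69% and 1.2% of all genes had one. Other fits also called 0 of the 101 in all 5 comparisons, although they called more genes overall. In the order above and leaving out the interaction, at 0% in each, DESeq2 called 1.53%, 0.161%, 0.698% and 0.799% of all genes. edgeR with the replicate number as a block called 1.63%, 0.0776%, 0.221% and 0.364%, and with offsets for GC content and length 0.913%, 0.0418%, 0.131% and 0.257%. With both it called 3.45%, 0.245%, 1.71% and 3.16%. In that last fit 5, 1, 14, 4 and 2 members had an unadjusted p under 0.05, where 14.8%, 6.64%, 15.2%, 16% and 3.74% of all genes had one. The comparisons share groups, so their values are not independent of each other.

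The smallest adjusted p of any member was 0.704 for Cox6b2, ACREB against control virus with VIP, at a log2 fold change of 0.29 (SE 0.11) (edgeR). With offsets for GC content and length that log2 fold change was 0.23, and with PBS it was 0.17 (SE 0.11) without offsets. The other unadjusted p under 0.05 belonged to mt-Atp6 for VIP with ACREB, at 1.09 (SE 0.47), a gene inside the copied stretch with 323 counts in all. Precision was limited: the 95% interval of a log2 fold change reached a median of 0.34 each way for the nuclear members and 0.28 for the 7 mitochondrial mRNAs for VIP with control virus. These intervals are not adjusted for the 16761 genes tested, so changes larger than this could also go uncalled for most members.

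With VIP and control virus, the median log2 fold changes of the 2 classes lay on opposite sides of 0. Summed markers of 2 other cell types did not overlap between these groups. The oligodendrocyte lineage summed to 1152 to 1601 CPM in control PBS and 1012 to 1133 in control VIP, and ependyma to 438 to 477 and 323 to 429. Their part in the result was not tested. The 13 mitochondrial mRNAs had a median of 0.22 with 13 of 13 above 0. The 7 outside the copied stretch had 0.14 with a range of 0.07 to 0.23, and the 88 nuclear members -0.12 with 10 above 0. Of the 13, 6 have uncertain values as said above, and the 13 share a few long transcripts, so their signs are not independent. The share of all genes tested above 0 is not given, here or for the comparisons below. The median of all genes tested was -0.02. By complex the nuclear medians were -0.13 for I, -0.17 for II, -0.06 for III, -0.09 for IV, -0.12 for V and -0.10 for the assembly factors. The 1608 other genes tested between 31.9% and 41.1% GC had a median of 0.31 with quartiles of 0.17 and 0.44. With GC and length offsets the medians were -0.02 for the 13, -0.11 for the 7 and -0.07 for the nuclear members. Without control PBS library 2 the median was 0.17 for the 13, again 13 of 13 above 0, and 0.13 for the 7. In that fit it was 0.06 for the nuclear members, with 73 of 89 above 0, and 0.03 for the other genes in the mitochondrial GC range. Without control VIP library 2 it was 0.05 for the 13 and for the 7, and -0.16 for the nuclear members.

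Among the nuclear members the largest log2 fold changes for VIP with control virus were 0.37 (SE 0.30) for Cox7a1, 0.34 (SE 0.20) for the assembly factor Ndufaf4 and 0.29 (SE 0.30) for Ndufb2. The smallest were -0.28 (SE 0.19) for Cox5a, -0.28 (SE 0.16) for Ndufaf8 and -0.25 (SE 0.19) for Ndufaf6. None of the 6 had an unadjusted p under 0.05. The well-counted Atp5b shows the common pattern of the nuclear members, with 906, 1482 and 870.2 CPM in the control PBS libraries 1 to 3, 913, 1059 and 949.9 with control VIP, 835, 1091 and 762 with ACREB PBS and 806, 971 and 831 with ACREB VIP. Control PBS library 2 was the highest of the 12, and without it the other 2 control PBS libraries lay below the 3 control VIP libraries. Its log2 fold change was -0.16 (SE 0.20) with all libraries and 0.13 without that one. For Cox8a the values were 187, 284 and 194 CPM in the control PBS libraries 1 to 3, 187, 213 and 201 with control VIP, 191, 229 and 184 with ACREB PBS and 186, 226 and 187 with ACREB VIP, again with control PBS library 2 highest, and the log2 fold change went from -0.15 (SE 0.16) to 0.07.

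With VIP and ACREB, the median was 0.20 for the 13 mitochondrial mRNAs, again 13 of 13 above 0, with the limits given for control virus. It was 0.16 for the 7 outside the copied stretch, -0.01 for the nuclear members with 36 of 88 above 0, and 0.00 for all genes. Other genes in the mitochondrial GC range had a median of 0.12, and with GC and length offsets the medians were 0.09 for the 13, 0.03 for the 7 and -0.00 for the nuclear members. Per gene, mt-Co1 had 0.12 (SE 0.11) beside 0.13 (SE 0.11) with control virus, mt-Cytb 0.20 (SE 0.12) beside 0.18 (SE 0.12), mt-Nd5 0.20 (SE 0.15) beside 0.23 (SE 0.15) and mt-Nd6 0.16 (SE 0.19) beside 0.19 (SE 0.19). In the interaction, the test of that difference, the medians were -0.00 for the 13 and 0.09 for the nuclear members, with 72 of 88 nuclear values above 0. Without control PBS library 2, the nuclear median of the interaction was -0.08. Among the nuclear members the extremes for VIP with ACREB were 0.42 (SE 0.29) for Cox7a1 and -0.28 (SE 0.21) for Ndufb9.

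ACREB against control virus with PBS gave medians of 0.03 for the 13 mitochondrial mRNAs, 0.00 for the 7 outside the copied stretch, -0.08 for the nuclear members and 0.01 for all genes. Within the nuclear class 21 of 88 lay above 0, from 0.34 (SE 0.42) for Cox4i2 to -0.28 (SE 0.20) for Atp5b, with -0.26 (SE 0.15) for Sdhd of complex II. This comparison too rests on control PBS library 2, without which the nuclear median was 0.09. With VIP the medians were 0.05, 0.00, 0.00 and 0.00 in the same order, and 46 of 88 nuclear members lay above 0. There the nuclear values ran from -0.45 (SE 0.30) for Ndufb2 to that of Cox6b2.

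**Figure D4:**
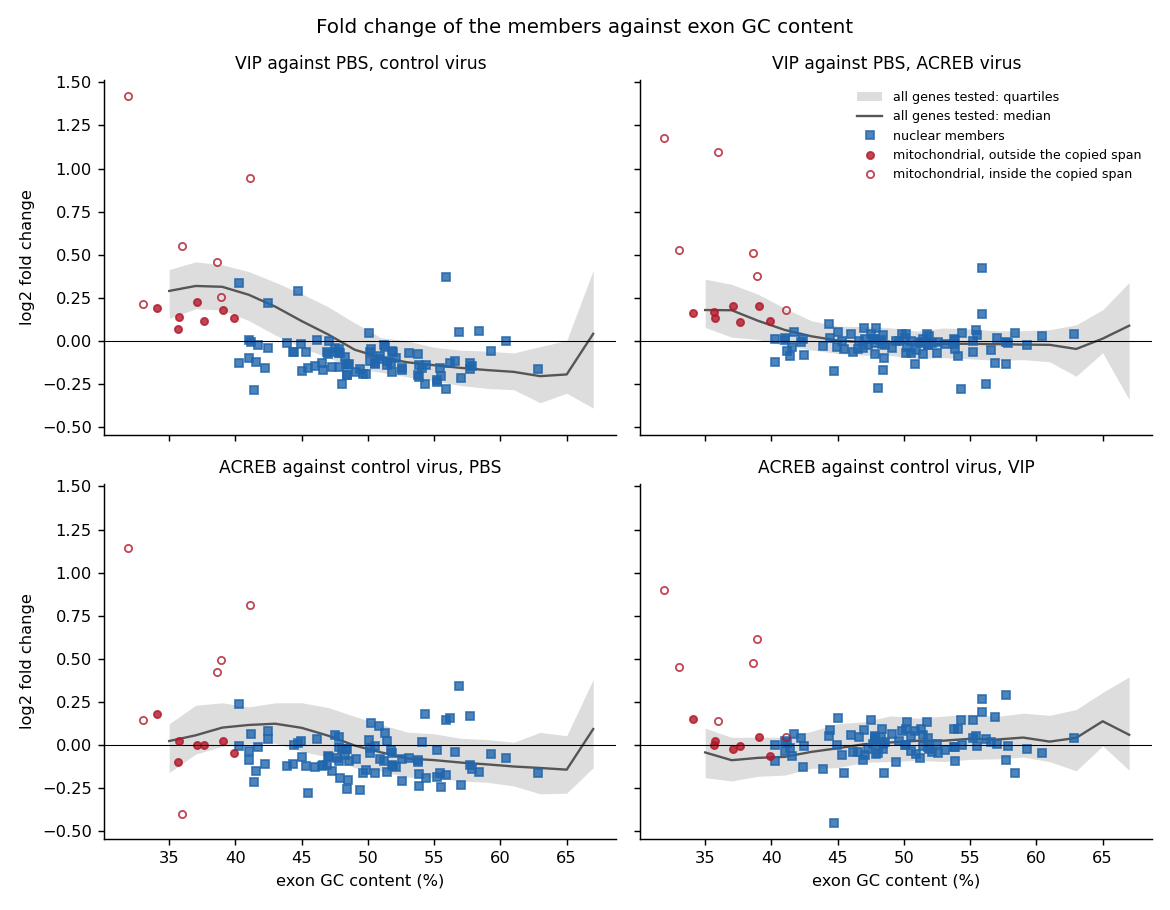
Log2 fold change against exon GC content in 4 comparisons, with tested nuclear members as squares, mitochondrial mRNAs outside the copied stretch as filled circles and those inside it as open circles. The line and band are the median and quartiles of all genes tested in bins of GC content. For VIP with control virus the line is at 0.32 between 36% and 38% GC and at -0.20 between 62% and 64%, and the 7 filled circles, at 0.07 to 0.23, lie below it.

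Since the study blocked CREB, the promoters of the nuclear members were searched for its site, the cAMP response element. RefSeq promoters (GRCm38.p6, 250 bases before the gene's start and 50 after) were matched by symbol or synonym for 76 of the 93 nuclear symbols. The full element TGACGTCA, which reads the same on both strands, was in 4 of 76, 5.26%, against 1.88% of all 27025 promoters and 3.19% of those of tested genes. The core TGACG on either strand, which the full element contains, was in 27, 35.5%, against 21.02% and 30.5%. The windows with the full element in capitals are shown because these are the members a CREB inhibitor could be asked about first. They lie at chr1:92473792-92473851 (minus strand), chr17:56717578-56717637 (plus), chr6:39592505-39592564 (plus) and chr13:30545317-30545376 (minus).
Ndufa10: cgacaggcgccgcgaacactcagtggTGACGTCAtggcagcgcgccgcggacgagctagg
Ndufa11: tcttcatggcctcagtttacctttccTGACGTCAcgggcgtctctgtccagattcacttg
Ndufb2: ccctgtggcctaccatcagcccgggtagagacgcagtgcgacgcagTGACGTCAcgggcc
Uqcrfs1: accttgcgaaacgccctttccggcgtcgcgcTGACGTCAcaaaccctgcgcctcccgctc
None of the 4 passed the test. For VIP with control virus Ndufa10 had a log2 fold change of -0.14 (SE 0.15), Ndufa11 -0.16 (SE 0.18), Ndufb2 0.29 (SE 0.30), which is uncertain as above, and Uqcrfs1, the Rieske iron-sulfur protein of complex III, -0.13 (SE 0.17). The 26 tested members with the core had a median of -0.13 in this comparison and the 48 without it -0.12. For ACREB against control virus with VIP the medians were -0.00 and 0.01. The palindromic NRF1 motif, bound by a regulator of many respiratory genes, was in 7 of 76, 9.21%, against 0.977% of all promoters and 1.87% of those of tested genes. These 7 were Ndufa11, Uqcrc1, Cox6a1, Atp5g2, Atp5k, Ndufaf4 and Ndufaf5. Their median log2 fold change for VIP with control virus was -0.13, and that of the 67 tested members without the motif -0.11. A match describes these letters only and shows no binding.

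Around the complexes, genes of related lists were counted in the same way. The lists were 41 other assembly factors (40 tested), 14 genes for cytochrome c and coenzyme Q (14), 31 for mitochondrial DNA copying, transcription and RNA (29), 14 regulators of mitochondrial biogenesis (13), 78 mitochondrial ribosomal proteins (77) and the 24 rRNA and tRNA genes of the mitochondrial chromosome (5). By edgeR's adjusted p, 1 gene passed, 1 of the 14 for cytochrome c and coenzyme Q. It passed for ACREB with PBS, where 0.0358% of all genes did, and 0 genes of the lists were called higher in any comparison. By unadjusted p under 0.05, in the order of the lists, 1, 1, 0, 3, 1 and 0 genes had one for VIP with control virus, where 6.42% of all genes did, and 2, 2, 1, 1, 4 and 0 for ACREB with PBS, where 5.3% did. The regulators, at 3 of 13, were above that share and the ribosomal proteins, at 1 of 77, below it for VIP with control virus. DESeq2, the block, the offsets and both together called 8 further genes of the lists, of which Ppargc1a, Coq10b and Nubpl are given below. These fits also called more of all genes, at 0.0418% to 3.45% by comparison, leaving out the interaction. Mrpl4 and Mrpl55, of the mitochondrial ribosome, were lower with ACREB and PBS by DESeq2, with the offsets, and with block and offsets. With VIP, Mrpl4 was lower in these fits too, and Mrpl55 in the last of them. With PBS their log2 fold changes were -0.82 (SE 0.15) and -0.67 (SE 0.13), both with adjusted p = 0.131 by edgeR without offsets and 0.0222 and 0.0223 with them. Creb1, the gene of CREB itself, from whose protein ACREB is derived, was higher with ACREB and VIP with the offsets. In the fit with block and offsets it was higher with ACREB under PBS and under VIP. With VIP and the offsets alone its log2 fold change was 0.85, adjusted p = 0.0320 by edgeR, against 0.81 (SE 0.34) and 0.808 without them. Whether reads from the ACREB sequence of the virus were counted under Creb1 was not tested. Coq7 was higher with ACREB and VIP in both fits with a block, and with ACREB and PBS in the fit with block and offsets. Cmc2 was lower with ACREB and VIP in that last fit. These 5 were named after their values were seen. The 1 gene that passed without a block or offsets in edgeR was Coq2 (chr5:100654723-100675140, minus strand, GRCm38), which attaches the side chain in coenzyme Q synthesis. Coq2 measured 43.5, 50.3 and 39.5 CPM in the control PBS libraries 1 to 3, 42.9, 37.8 and 39.6 with control VIP, 27.5, 23.3 and 24.4 with ACREB PBS and 24.3, 24.0 and 25.1 with ACREB VIP. All 6 ACREB libraries lay below all 6 libraries with control virus, and the share of all genes tested that separate so is not given here. Coq2 fell by 0.83 on the log2 scale (SE 0.12) with ACREB and PBS, adjusted p = 0.0416 by edgeR, and with VIP the log2 fold change was -0.71 (SE 0.12), adjusted p = 0.0703. With the replicate block the adjusted p was 0.0188 with PBS and 0.0273 with VIP. With VIP it also passed with GC and length offsets, at 0.0205, and by DESeq2, at 4.9e-06. With any 1 of the 12 libraries left out, the call with PBS was lost, at adjusted p from 0.0662 to 0.394. It was also lost with upper quartile scaling, at 0.0735, and with the 2 groups fitted alone, at 0.997.

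Ppargc1a, the coactivator PGC-1alpha that drives nuclear respiratory genes, measured 49.0, 20.6 and 40.9 CPM in the control PBS libraries 1 to 3, 93.3, 82.8 and 70.6 with control VIP, 47.3, 30.1 and 41.0 with ACREB PBS and 64.1, 44.4 and 45.1 with ACREB VIP. With control virus the 3 VIP libraries, at 70.6 to 93.3, lay above the 3 PBS libraries, at 20.6 to 49.0, of which library 2 was the lowest. The log2 fold change was 1.16 (SE 0.28), adjusted p = 0.140 by edgeR, and 1.22 with adjusted p = 0.00809 with the replicate block. It also passed with GC and length offsets, at 0.97 and adjusted p = 0.00503, and by DESeq2, and in 0 of 12 fits with a library left out. With block and offsets together it was also lower with ACREB and VIP, at adjusted p = 0.0030 by edgeR. With ACREB it was 0.38 (SE 0.28), and the interaction, at -0.78 (SE 0.39), had an adjusted p of 1.00 by edgeR. Coq10b, a coenzyme Q binding protein, had 0.76 (SE 0.17) for VIP with control virus, adjusted p = 0.106, and 0.0290 with the block and 0.0232 with the offsets. Nubpl, which delivers iron-sulfur clusters to complex I and has the full element in its promoter, measured 10.1, 11.6 and 10.1 CPM in the control PBS libraries 1 to 3, 11.6, 10.1 and 11.4 with control VIP, 6.60, 5.20 and 6.91 with ACREB PBS and 5.11, 5.07 and 6.16 with ACREB VIP. All 6 ACREB libraries were below all 6 with control virus. For Ppargc1a and Nubpl too, the share of all genes tested with such a separation is not given here. The log2 fold change of Nubpl with ACREB and VIP was -1.02 (SE 0.16), adjusted p = 0.0534, and 0.0215 with the block, and with PBS -0.76 (SE 0.16), adjusted p = 0.156. By DESeq2 it passed in both.
Its promoter window lies at chr12:52097686-52097745 (plus strand) and was looked up after its values were seen. No matches are given for the other genes of the lists. The full element is in 3.19% of the promoters of tested genes, and a match shows no binding.
Nubpl: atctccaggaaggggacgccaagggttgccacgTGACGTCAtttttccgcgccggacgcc

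None of the other named regulators passed. For VIP with control virus, Tfam, which packs and transcribes mitochondrial DNA, had a log2 fold change of 0.13 (SE 0.15), the mitochondrial RNA polymerase Polrmt -0.21 (SE 0.14), its partner Tfb2m 0.17 (SE 0.13), and Lrpprc, which stabilises mitochondrial mRNA, 0.29 (SE 0.25). Nrf1 had -0.12 (SE 0.11), Gabpa 0.27 (SE 0.27), Esrra -0.16 (SE 0.20) and cytochrome c (Cycs) -0.02 (SE 0.18). Gabpa was at 42.5 CPM in control PBS library 2 against 90.5 to 100.1 in libraries 1 and 3, and Lrpprc at 22.9 against 51.4 and 53.3. None of these 8 passed in any of the 5 comparisons, by edgeR with or without the replicate block. The mitochondrial ribosomal proteins, nuclear genes whose products translate the 13 mRNAs, had a median of -0.11 for VIP with control virus, beside -0.12 for the nuclear members, and -0.03 with ACREB. Of the 2 mitochondrial rRNAs, mt-Rnr1 had -0.01 (SE 0.13) and mt-Rnr2 0.04 (SE 0.09) for VIP with control virus.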

How the data were processed

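The table the authors deposited holds raw counts for each Ensembl gene in the 12 libraries. The submitters' processing notes name STAR 2.7.1a, Trimmomatic 0.39, edgeR, HTSeq 0.11.2 and R 3.6.1, with the builds GRCm38 and mm10. Libraries were strand-specific, per the labels' protocols. The strand setting used for counting was not given in the sources used here. Names, exons and GC content came from GENCODE M21, which named 55480 of the 55573 identifiers.

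From the counts, 16761 genes passed filterByExpr in edgeR 4.0.16 (R 4.3.3). After TMM scaling, a quasi-likelihood model with a mean for each group was fitted to the whole table, with 8 residual degrees of freedom. SE values are |log2 fold change| over the root of F. CPM used TMM-scaled sizes, log2 values a pseudocount of 2, and RPKM the merged exon length. Smooths on GC content and length had 5 degrees of freedom each (16753 genes). The tests were checked on simulated data. DESeq2 1.42.0 was an alternative.

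Members and lists were chosen with earlier results of these data known. Named genes were the 13 mitochondrial mRNAs, the 2 highest and the lowest nuclear member of each complex by RPKM, the 3 largest and 3 smallest changes per comparison of 2 groups, the extremes of GC content, paired isoforms, called genes and 10 regulators and carriers; not all are described. Coq10b, Nubpl, Coq7, Mrpl4, Mrpl55, Creb1, Cmc2 and the 4 members with the full element were chosen after their values were seen. Replicate numbers were taken to pair the samples in the pair counts and the replicate block. The reason was that libraries with 1 number shared their deviations in 18 of 18 pairs (correlations of 0.132 to 0.679 across genes). The main fit had no block, so its p-values and SEs do not use the pairing. Alternatives were DESeq2, 2 other scalings, no filter, the replicate block, GC and length offsets, both of these, the 2 groups compared alone, and each library left out. Added after seeing the data were 2 more: both PBS libraries numbered 2 left out, and the mitochondrial class without the copied stretch.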

Additional observations from a re-analysis of the deposited data

How the results depend on the processing

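No named member passed the threshold in any of 21 alternatives, and of 4779 alternative values 520 had the other sign. With the replicate block the median log2 fold change of the 13 mitochondrial mRNAs for VIP with control virus was 0.18 and of the nuclear members -0.11; the block changed no member's call, and for the lists it moved those of Ppargc1a, Coq10b, Coq2 and Nubpl given above, and of Coq7. Mitochondrial medians in this section are over all 13 mRNAs, of which the 6 inside the copied stretch are uncertain. The mitochondrial median moved with GC and length offsets to -0.024 for VIP with control virus, 0.089 for VIP with ACREB, -0.078 for ACREB with PBS and 0.14 for the interaction. With offsets and replicate block these were -0.021, 0.11, -0.065 and 0.13. Without both PBS libraries numbered 2 it was 0.33 for VIP with ACREB, -0.065 for ACREB with PBS and 0.14 for the interaction, and the nuclear median for VIP with control virus was 0.057. In control PBS library 2 the departure of the 13 went from -0.15 to 0.36 once the smooth was removed. With each library left out in turn, the mitochondrial median ran from 0.052 to 0.30 for VIP with control virus, 0.17 to 0.35 for VIP with ACREB, -0.02 to 0.08 for ACREB with PBS, -0.0016 to 0.20 for ACREB with VIP and -0.055 to 0.14 for the interaction. The nuclear median ran from -0.19 to 0.061, -0.08 to 0.09, -0.19 to 0.09, -0.05 to 0.06 and -0.08 to 0.21 in the same order. The median nuclear level was 51.5 RPKM by merged exons and 70.6 by the longest transcript. The cause of these moves was not tested.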
